A study of Mus musculus with 14 samples.

Results

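The genes of the cytoplasmic ribosomal proteins were followed in single mouse embryos made by somatic cell nuclear transfer (SCNT). They were taken by symbol: Rpl or Rps followed by a number, plus Rplp0, Rplp1, Rplp2 and Rpsa, without the S6 kinases and without pseudogenes. This gave 89 of 20242 gene symbols, 54 of the large (60S) and 35 of the small (40S) subunit by their names. Among them, Rps19bp1 encodes a protein that binds Rps19 and is not itself a ribosomal protein. Rps23rg1 carries another name, C330021F23Rik, in the annotation used below, and what it encodes was not checked. Fau and Rack1 encode components of the small subunit under other symbols and are given apart. In no embryo were all 89 genes seen together: between 11 and 36 of them were at 0 RPKM (reads divided by transcript length in kilobases and by the depth of the library) in each embryo, and 67 were both under 1 RPKM in some embryo and over 100 RPKM in another.

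A ribosome holds one copy of nearly every ribosomal protein, so that the genes of both subunits are transcribed at high and similar rates in most dividing cells. Their mRNAs carry a short pyrimidine tract at the 5′ end that places their translation under the mTOR kinase. The mouse oocyte stores ribosomes for the first divisions, and the embryo begins to make its own ribosomal protein mRNA when its genome is activated at the two-cell stage.

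The 14 embryos fell into 6 groups. All were B6D2F1 (C57BL/6J×DBA/2N), with enucleated oocytes from superovulated females aged 8 to 10 weeks and cumulus cells, the somatic cells around the oocyte, as nuclear donors, and all were collected as two-cell embryos at 28 h. Control embryos (n = 3) had no further treatment. Trichostatin A (TSA), an inhibitor of histone deacetylases, was given at 50 nM from 0 to 8 h after activation in TSA(0-8h) (n = 3). Vitamin C (VC), a cofactor of dioxygenases that demethylate DNA and histones, was given at 10 µg/ml in VC(0-8h) (n = 1) and VC(8-15h) (n = 2). Both were given in TSA(0-8h)+VC(0-8h) (n = 2) and TSA(0-8h)+VC(8-15h) (n = 3). Each library was made by PCR amplification from part of the RNA of 1 embryo, and the labels do not say which embryos shared an experiment. The p-values below therefore measure the spread between these embryos, which holds technical as well as biological variation. In whole embryos, fewer transcripts per cell and fewer contributing cells cannot be told apart.

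Between 3021540 and 13589389 reads were counted per embryo, so 3 reads on a transcript of 1 kb correspond to 0.221 to 0.993 RPKM. Intervals and floors of this kind cover counting error only. The cell type was checked on marker lists. Of 15 cumulus cell genes, 1 to 3 reached 1 RPKM in each embryo, and Inha, Inhba and Fshr were at 0 in all 14. Others of this list were high in some embryos. Amhr2 reached 144 RPKM in TSA(0-8h) replicate 3, Vcan 69.0 RPKM in TSA(0-8h) replicate 2 and Nr5a2 92.9 RPKM in TSA(0-8h)+VC(8-15h) replicate 3. The summed level of the list ran from 1.66 RPKM in control replicate 2 to 185 RPKM in TSA(0-8h) replicate 3. Of 15 oocyte genes found in the files, 7 to 14 reached 1 RPKM, and of 13 genes of the two-cell stage, 5 to 13. The summed level of the two-cell genes ran from 42.6 to 5971 RPKM in control embryos and from 1189 to 3948 RPKM in TSA(0-8h)+VC(8-15h) embryos, and its part in the results below was not tested.

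Ribosomal protein transcripts are hard to count because the genome holds many processed copies of them, and 163 genes of the mm9 annotation are named as their pseudogenes. For 86 of the 89 genes a transcript was found in that annotation, and each of its 50-base windows, the length of the reads, was looked up in the mm9 genome. In the median gene 60.7% of the windows were present letter for letter at another place. The share was 50% or more in 54 genes and 90% or more in 15, while 8 genes were under 10% and 4, with Rpl3l, Rpl39l and Rps19bp1 among them, had no such window. How reads with several places were counted is not given in the sources used here. The genes of the Rps27 group, a zinc finger protein of the small subunit, show the range, and the first 50 bases of their coding regions are given 5′ to 3′, with capitals where a base differs from Rps27.
Rps27: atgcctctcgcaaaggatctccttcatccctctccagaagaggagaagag
Rps27rt: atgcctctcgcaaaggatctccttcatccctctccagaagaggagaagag
Rps27l: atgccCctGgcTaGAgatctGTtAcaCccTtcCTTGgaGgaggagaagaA
Over the coding region of 255 bases, Rps27 (mm9, chr3:90016593-90017573, minus strand) and its retrotransposed copy Rps27rt (chr9:114891515-114891858, minus strand) were 100% identical, so a read from one cannot be told from a read of the other. Rps27l (chr9:66793893-66797323, plus strand) differed at 61 bases and was 76.1% identical, and 17.9% of its windows were found elsewhere. Values of Rps27 and Rps27rt are uncertain for this reason.

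**Figure D1:**
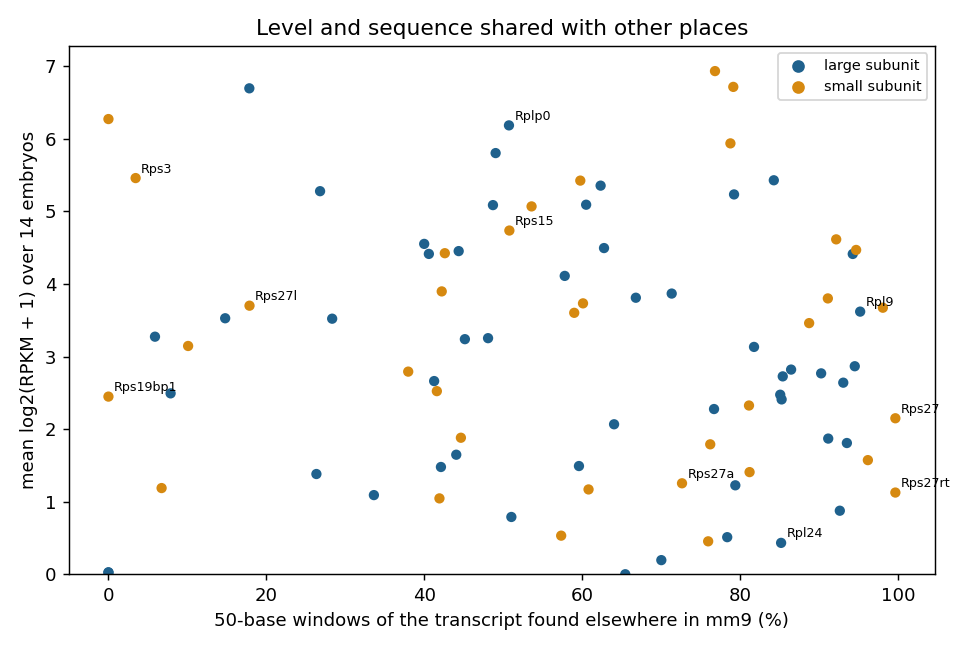
Mean level of 86 ribosomal protein genes (y axis, mean log2(RPKM + 1) over 14 embryos) against the percentage of each transcript's 50-base windows that occur elsewhere in the mm9 genome (x axis), with large subunit genes in blue and small subunit genes in orange. The genes with a share under 10% include Rpl3l, near 0 on the y axis, and Rps3, among the higher points, and shares reach 99.7% in Rps27.

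The level of a gene did not follow the share of its windows found elsewhere. The median gene at 50% or more had a mean of 49.3 RPKM and the median gene under 10% a mean of 23.5 RPKM, and Spearman's rho between share and mean level over the 86 genes was 0.05. This is a description across genes, which share the libraries and their depth.

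The promoters were searched for letters that ribosomal protein genes are known for. A promoter of 250 bases before to 50 after the start (RefSeq, GRCm38.p6) was held for 69 of the genes. The core of ETS-family sites, CCGGAAG on either strand, was found in 26 of the 69 (37.7%), against 9.93% of 27025 genes. CTCTTTC, searched on both strands for a pyrimidine-rich stretch like that at the start of these mRNAs, was found in 18 (26.1%) against 9.28%. TATAAA was found in 8 (11.6%) against 15.7%. A stretch of 60 bases is given for one gene with each of the first pair, found at 1 place in mm9, with the motif in capitals, for Rpl19 at chr11:97887964-97888023 and Rpl5 at chr5:108329487-108329546, both on the plus strand.
Rpl19: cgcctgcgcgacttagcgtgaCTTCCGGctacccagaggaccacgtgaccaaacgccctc
Rpl5: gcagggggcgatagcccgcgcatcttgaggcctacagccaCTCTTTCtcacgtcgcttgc
The capitals in Rpl19 are the reverse complement of CCGGAAG. The median gene with CCGGAAG had a mean of 62.7 RPKM and the median gene without it 40.1 RPKM. With CTCTTTC the mean was 41.3 RPKM and without it 61.4 RPKM, and with TATAAA it was 19.6 RPKM and without it 64.0 RPKM. These matches describe letters only.

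Ribosomal protein genes made up a small part of each library. Their summed level in control embryos was 4609.9, 5443 and 1839 RPKM, which is 0.517% to 1.52% of the RPKM of all genes. The TSA(0-8h) embryos had 15019.8, 3206 and 5968 RPKM, and those given both agents in sequence, TSA(0-8h)+VC(8-15h), had 6669.5, 5190.4 and 5192 RPKM. Sums of 4489 and 15657 RPKM were found for VC(8-15h), of 4638 and 6307 RPKM for TSA(0-8h)+VC(0-8h), and of 6197 RPKM for the VC(0-8h) embryo. The means of the groups of 3 were 3964 ± 1886, 8065 ± 6180 and 5684 ± 853 RPKM (SD, n = 3), in the order control, TSA(0-8h), TSA(0-8h)+VC(8-15h). Without replicate 1 of TSA(0-8h) the mean of that group was 4587 RPKM, below that of TSA(0-8h)+VC(8-15h), and with median-ratio scaling the 3 means were 5562, 10745 and 3255 RPKM, which puts TSA(0-8h)+VC(8-15h) below control. The TSA(0-8h) embryos overlapped with both other groups, which overlapped with each other too.

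The leading gene took a large share of the highest sums, but these stayed the highest without it. Rps27 alone gave 4085 RPKM in replicate 2 of VC(8-15h), 26.1% of the sum of that embryo, which was at 11571.5 RPKM without it, and without Rps27 the mean of the group was 8030.0 instead of 10073 RPKM. Rpl35a, a protein of the large subunit, gave 4017 RPKM in replicate 1 of TSA(0-8h), 26.7% of its sum, which was 11003 RPKM without it. There 230 RPKM came from the transcript of 536 bases, and 1664 and 2123 RPKM from a pair of short entries. Of the first of the pair 74 bases were counted. The counted length of the other is uncertain, since very short recovered lengths were multiplied. The recovered reads were 373, 372 and 744, so the same reads may have entered the sum of Rpl35a more than once. The leading 5 genes took 26.4% to 68.1% of the sum, and the leading gene differed between embryos: Rplp1, Rpl28 and Rpl32 in the control embryos, Rpl35a, Rpl12 and Rpl30 in TSA(0-8h), and Rplp1, Rpl31 and Rpl30 in TSA(0-8h)+VC(8-15h). Rpl30 and Rpl31 led only through short entries, of 145 and 263 counted bases. The latter gave 499 of the 604 RPKM of Rpl31 in TSA(0-8h)+VC(8-15h) replicate 2.

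**Figure D2:**
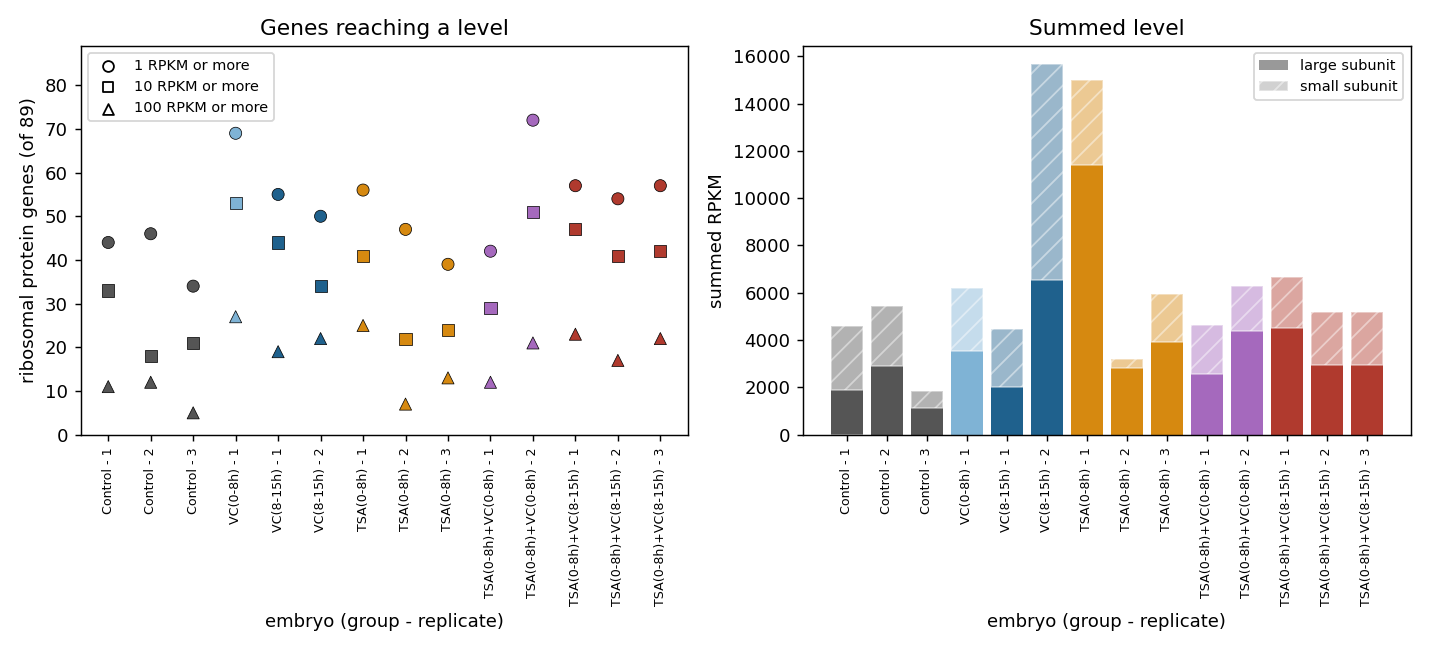
Left, number of the 89 ribosomal protein genes (y axis) that reached 1, 10 or 100 RPKM in each embryo (x axis, group and replicate). Right, summed RPKM (y axis) of the large (solid) and small (hatched) subunit genes in each embryo, where replicate 2 of VC(8-15h) and replicate 1 of TSA(0-8h) stand at 15657 and 15019.8 RPKM and the other 12 embryos at 6669.5 RPKM or less.

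The number of ribosomal protein genes seen in an embryo gave another picture than the sum. In control embryos 44, 46 and 34 of the 89 genes reached 1 RPKM, in TSA(0-8h) embryos 56, 47 and 39, and in TSA(0-8h)+VC(8-15h) embryos 57, 54 and 57. The VC(8-15h) embryos had 55 and 50, the TSA(0-8h)+VC(0-8h) embryos 42 and 72, and the VC(0-8h) embryo 69. The TSA(0-8h)+VC(8-15h) embryos were all above the control embryos, whereas TSA(0-8h) overlapped with both. The same held at 10 RPKM, with 33, 18 and 21 genes in control and 47, 41 and 42 in TSA(0-8h)+VC(8-15h) embryos, and at 100 RPKM, with 11, 12 and 5 against 23, 17 and 22. The number of all genes at 1 RPKM moved in the same direction, from 4827, 3576 and 4979 in control to 5082, 5114 and 5290 in TSA(0-8h)+VC(8-15h) embryos. With TSA(0-8h) alone 3891, 3298 and 3966 genes did so, and the part of this number in the counts was not tested.

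The balance of the subunits varied between embryos as well. The summed RPKM of small subunit genes was 1.42, 0.884 and 0.654 times that of large subunit genes in control embryos and 0.316, 0.135 and 0.524 times in TSA(0-8h) embryos, and these did not overlap. The large subunit sum of TSA(0-8h) replicate 3, 3916 RPKM, held 1301 RPKM from an Rpl30 entry of 145 counted bases. Without that entry, the ratio of this embryo would lie above that of control replicate 3. The lack of overlap thus rests on it. It was 0.484, 0.765 and 0.772 times in TSA(0-8h)+VC(8-15h) embryos and 1.24 and 1.40 times in VC(8-15h) embryos. With 3 against 3 embryos an exact permutation test cannot give a two-sided p below 0.1, and none is given for these sums.

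**Figure D3:**
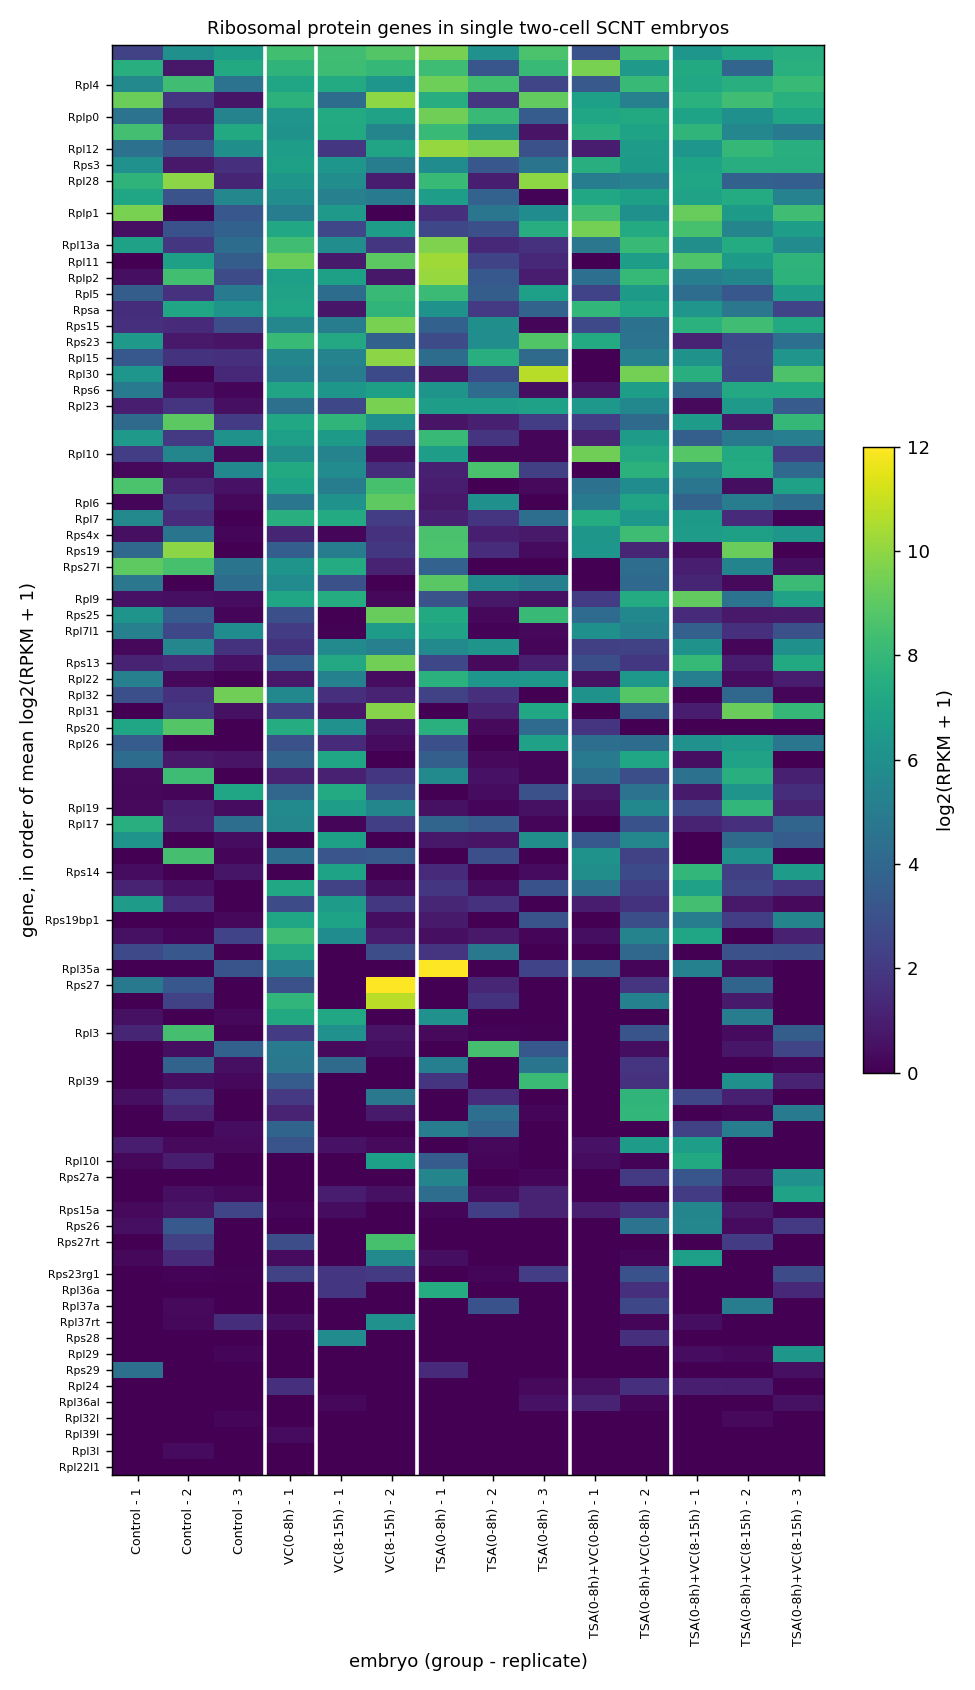
Level of each of the 89 ribosomal protein genes (rows, in order of mean level) in each of the 14 embryos (columns, by group), as log2(RPKM + 1), with the names of some genes at the left. Neighbouring cells of one row range from dark (0) to bright, in embryos of the same group too.

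Single genes scattered widely within groups. Of the 1246 values (89 genes in 14 embryos), 25.3% were 0, 16.8% were above 0 and under 1 RPKM, 17.8% from 1 to 10, 21.2% from 10 to 100 and 18.9% at 100 RPKM or more. Taking of each gene the entry with the highest mean, 233 values of 100 RPKM or more of that entry rested on 182 to 11716 reads, and 204 values above 0 and under 1 RPKM on 1 to 29. Only 4 genes reached 1 RPKM in all 14 embryos, among them Rpl4, Rpl5 and Rpl13a of the large subunit. None reached 10 RPKM in all. The SD of log2(RPKM + 1) over the embryos had a median of 2.71 over the 80 genes that passed the filter of 1 RPKM in at least 3 embryos, and of 2.17 over all 7518 genes that passed, while the mean of log2(RPKM + 1) had medians of 3.26 and 2.36. The median Spearman's rho over 3160 pairs was 0.09, against 0.05 over all pairs of genes, each over 14 embryos that share library and depth between genes.

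Among the 5 genes with the highest mean were Rps27 (296 RPKM), Rpl35a (294) and Rpl11 (237). The mean of Rpl35a rested mainly on its short entries in replicate 1 of TSA(0-8h). Despite the highest mean, Rps27 was at 0 in 7 embryos. The lowest means above 0 were those of Rpl3l (0.0187 RPKM), Rpl39l (0.0208), Rpl32l (0.0244), Rpl36al (0.178) and Rpl24 (0.483), and Rpl22l1 was at 0 in all 14 embryos. Rpl24, of the large subunit, reached at most 2.07 RPKM, and 85.2% of its windows were found elsewhere in mm9. The 9 genes that failed the filter were Rpl3l, Rpl22l1, Rpl29, Rpl32l, Rpl36al, Rpl37rt, Rpl39l, Rps28 and Rps29.

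Among the genes that passed, the largest SDs of log2(RPKM + 1) were those of Rpl11, Rpl30, Rpl31, Rps19 and Rps20. Rpl30, which binds its own transcript in yeast, was at 78.9, 0 and 1.53 RPKM in control embryos, at 0.576, 5.53 and 1697 RPKM in TSA(0-8h) and at 182, 5.14 and 402 RPKM in TSA(0-8h)+VC(8-15h). Of the 1697 and 402 RPKM, 1301 and 243 came from an entry of 145 counted bases, and 396 and 159 from one of 575. The smallest SDs were those of Rpl24, Rpl37a, Rps15a, Rps23rg1 and Rps26, all of which had means under 6 RPKM.

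TSA(0-8h)+VC(8-15h) embryos were compared with control embryos to ask which of these genes respond to the sequential treatment. No ribosomal protein gene passed an adjusted p of 0.05 (limma on log2(RPKM + 1), 1 fit of all 14 embryos, Benjamini-Hochberg over 7518 genes), and neither did any other gene (0%). Limma-voom on the recovered reads called 2 of all genes (0.0266%) and 0 ribosomal protein genes. In that fit 10 of the latter were higher (background 5.21%) and 1 lower (background 1.61%) at an unadjusted p under 0.05. In limma on log2(RPKM + 1), 13 of the 80 tested genes were higher at an unadjusted p under 0.05, against a background of 5.09% of all genes, and 2 were lower, against 1.84%. Every embryo of TSA(0-8h)+VC(8-15h) was above every control embryo for 14 of the 80 genes (background 8.46%) and below for 0 (background 3.23%). The median log2 difference was 1.40 over the 80 genes and 0.38 over all genes, and 63 of the 80 were above 0. The 13 genes became 7 without control replicate 3 (background 4.24%). They became 5 of 76 tested without TSA(0-8h)+VC(8-15h) replicate 1 (background 4.07%) and 7 without its replicate 3 (background 4.36%). The 2 lower genes became 0 to 3 without any 1 embryo (background 1.09% to 2.43%). The median stayed between 1.37 and 1.76 without any 1 embryo.

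Rps15, a protein of the head of the small subunit near the decoding site, had the smallest p. Its level was 2.12, 1.67 and 6.20 RPKM in control and 199, 314 and 155 RPKM in TSA(0-8h)+VC(8-15h) embryos, on 6, 6 and 44 against 452, 1274 and 992 reads. The groups did not overlap, and the log2 difference was 5.77 ± 1.75 (SE; limma adjusted p = 0.572). Rpl9, at the base of the stalk of the large subunit, was at 0.509, 0.402 and 0.304 RPKM in control and at 551, 22.5 and 119 RPKM in TSA(0-8h)+VC(8-15h) embryos. No control embryo had more than 3 reads of it, and the log2 difference was 6.37 ± 2.06 (SE; limma adjusted p = 0.679). Of the windows of Rpl9 95.2% were found elsewhere in mm9, and of those of Rps15 50.8%.

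Rps3, which lines the entry of the mRNA channel and also acts in DNA repair, was at 66.2, 0.776 and 2.04 RPKM in control and at 123, 178 and 177 RPKM in TSA(0-8h)+VC(8-15h) embryos. The difference was 4.47 ± 1.55 on the log2 scale (SE; limma adjusted p = 0.697), and only 3.44% of its windows were found elsewhere. The 3 genes with the smallest p among those that were lower were Rps27l, Rps20 and Rpl32. Rps27l, a p53-induced relative of Rps27, was at 512, 362 and 23.3 RPKM in control and at 0.992, 41.3 and 0.351 RPKM in TSA(0-8h)+VC(8-15h) embryos, and replicate 2 of the latter overlapped with replicate 3 of the former. Rps20 was at 0 in all 3 TSA(0-8h)+VC(8-15h) embryos and at 137, 436 and 0 RPKM in control. For Rpl32 the values of replicates 1 to 3 were 6.59, 2.31 and 672 RPKM in control and 0, 15.3 and 0.162 RPKM with the treatment. The range of adjusted p over all settings tried was 0.111 to 0.928 for Rps15 and Rpl9, 0.130 to 0.928 for Rps3, 0.126 to 0.928 for Rps27l, 0.419 to 0.928 for Rps20 and 0.427 to 0.956 for Rpl32.

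Scaling moved the comparison. With median-ratio scaling the median over all genes was -0.02 instead of 0.38, and that of the ribosomal protein genes was 0.66. Of the latter, 4 instead of 13 were higher at an unadjusted p under 0.05, against a background of 2.50% of all genes. The library identifiers hold a number shared by sets of embryos, here called a pool, though the labels do not say what it stands for. Same-numbered TSA(0-8h)+VC(8-15h) and control embryos shared a pool. The median difference of the 80 genes was 0.90, 0.63 and 1.43 in pools 1, 2 and 3, against 0, 0.21 and 0 for all genes.

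**Figure D4:**
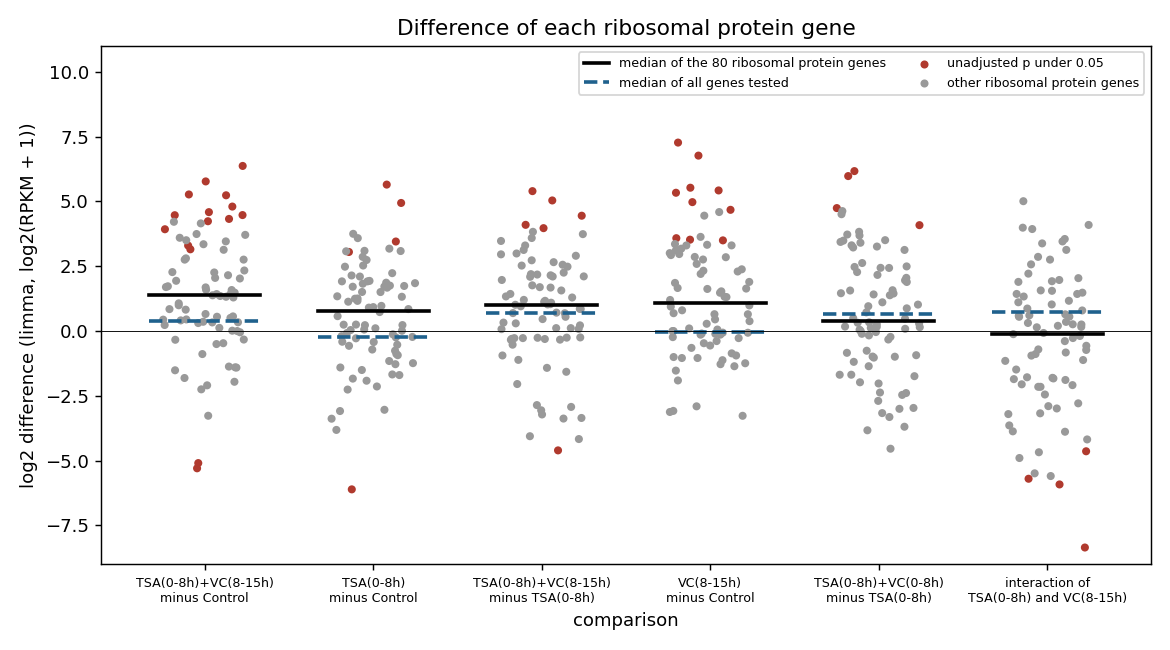
Log2 difference (y axis) of each of the 80 ribosomal protein genes that passed the filter in 6 comparisons (x axis), with the median of these genes as a black line and the median of all genes tested as a dashed line. Red points have an unadjusted p under 0.05, and none passed after adjustment. In the first comparison the medians lie at 1.40 and 0.38.

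TSA(0-8h) embryos were compared with control embryos to ask what TSA does without VC. No gene passed an adjusted p of 0.05 in limma (0%), and limma-voom called 1 gene (0.0133%), which was not a ribosomal protein gene. At an unadjusted p under 0.05, 4 of the 80 ribosomal protein genes were higher (background 2.34%) and 1 was lower (background 3.42%), and 4 and 2 did not overlap between the groups (background 2.94% and 5.59%). The median difference was 0.79 for these genes and -0.24 for all genes, with 50 of the 80 above 0. The median rested on replicate 1 of TSA(0-8h): without it the value was 0.16, and 0.45 without replicate 3. The 4 genes became 2 without control replicate 2 (background 1.42%), and 8 or 6 without replicate 2 or 3 of TSA(0-8h) (background 2.94% and 3.01%). The 1 lower gene became 2 without control replicate 2 or 3 (background 4.64% and 3.68%) or TSA(0-8h)+VC(8-15h) replicate 2 (background 3.13%). Within pools the median was 0.67 in pool 1, which held replicate 1 of TSA(0-8h), and 0 in pools 2 and 3.

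Rpl23, a protein of the intersubunit face that can also bind Mdm2, stood out by its evenness. It was at 104, 102 and 116 RPKM in the TSA(0-8h) embryos and at 1.04, 2.47 and 0.416 RPKM in control, from 334, 848 and 1451 against 6, 18 and 6 reads. The groups did not overlap, and the log2 difference was 5.65 ± 1.88 (SE; limma adjusted p = 0.660, range over all settings 0.155 to 0.894). Rpl22, a protein that is not needed for the ribosome to work and that has the paralogue Rpl22l1, was at 204, 77.5 and 82.9 RPKM in TSA(0-8h) and at 36.0, 0.214 and 0.0361 RPKM in control embryos. The difference was 4.94 ± 2.14 (SE; limma adjusted p = 0.794).

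Rps27l had the smallest p among the genes that were lower, with 12.8, 0 and 0 RPKM in TSA(0-8h) embryos against the control values above. The log2 difference was -6.11 ± 2.10 (SE; limma adjusted p = 0.660, range over all settings 0.149 to 0.894). Rpl32, also among the 3 smallest p in that direction, had a limma adjusted p of 0.906. Among the genes that were higher, Rplp0 had one of the 3 smallest p, and its groups overlapped.

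TSA(0-8h)+VC(8-15h) embryos were compared with TSA(0-8h) embryos to ask what VC adds. No gene passed in limma (0%), and limma-voom called 1 gene (0.0133%), again none that encodes a ribosomal protein. At an unadjusted p under 0.05, 5 of the 80 genes were higher (background 4.97%) and 1 was lower (background 1.02%). Without overlap between the groups, 7 were higher (background 9.58%) and 3 were lower (background 1.84%). The medians were 1.02 for the ribosomal protein genes and 0.71 for all genes, and with median-ratio scaling 0.33 and 0.04. Without TSA(0-8h) replicate 3 the median of the 80 genes was 0.64. The 5 genes became 10 or 3 without TSA(0-8h) replicate 1 or 2 (background 4.27% and 3.46%). They became 3 without TSA(0-8h)+VC(0-8h) replicate 1 (background 4.80%) and 2 without TSA(0-8h)+VC(8-15h) replicate 1 (background 4.52%). The balance turned in some settings. Without TSA(0-8h) replicate 2, 3 genes were higher and 6 lower (background 3.46% and 1.48%). With median-ratio scaling 2 were higher and 5 lower (background 1.98% and 2.59%), and with quantile normalization 2 and 4 (background 2.08% and 2.15%). In both scalings the balance of all genes turned too. Without TSA(0-8h) replicate 1, 2 were lower (background 1.31%). Within pools the median was 0, 0.66 and 0.49.

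Rpl9, Rps15 and Rps14 had the smallest p among the higher genes. In TSA(0-8h) embryos Rpl9 was at 7.30, 0.706 and 0.469 RPKM and Rps15 at 12.0, 61.0 and 0.163 RPKM. Rps14, which lies at the mRNA exit, was at 1.66, 0 and 0.285 RPKM in TSA(0-8h) and at 246, 3.88 and 99.7 RPKM in TSA(0-8h)+VC(8-15h) embryos, and at 0.309, 0 and 0.616 RPKM in control. Log2 differences were 5.40 ± 2.06, 4.45 ± 1.75 and 5.04 ± 2.12 (SE; limma adjusted p = 0.810 for each).

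Rpl22, Rpl23 and Rps25 had the smallest p among the lower genes. Rpl22 was at 35.5, 0.315 and 0.958 RPKM in TSA(0-8h)+VC(8-15h) embryos, below every TSA(0-8h) embryo, with a log2 difference of -4.60 ± 2.14 (SE; limma adjusted p = 0.813). Rpl23 was at 0.217, 86.0 and 9.74 RPKM, again below every TSA(0-8h) embryo. Rps25, used in translation from internal entry sites, was at 1.68, 0.752 and 0.834 RPKM in TSA(0-8h)+VC(8-15h) and at 155, 0.187 and 268 RPKM in TSA(0-8h) embryos, which overlapped.

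**Figure D5:**
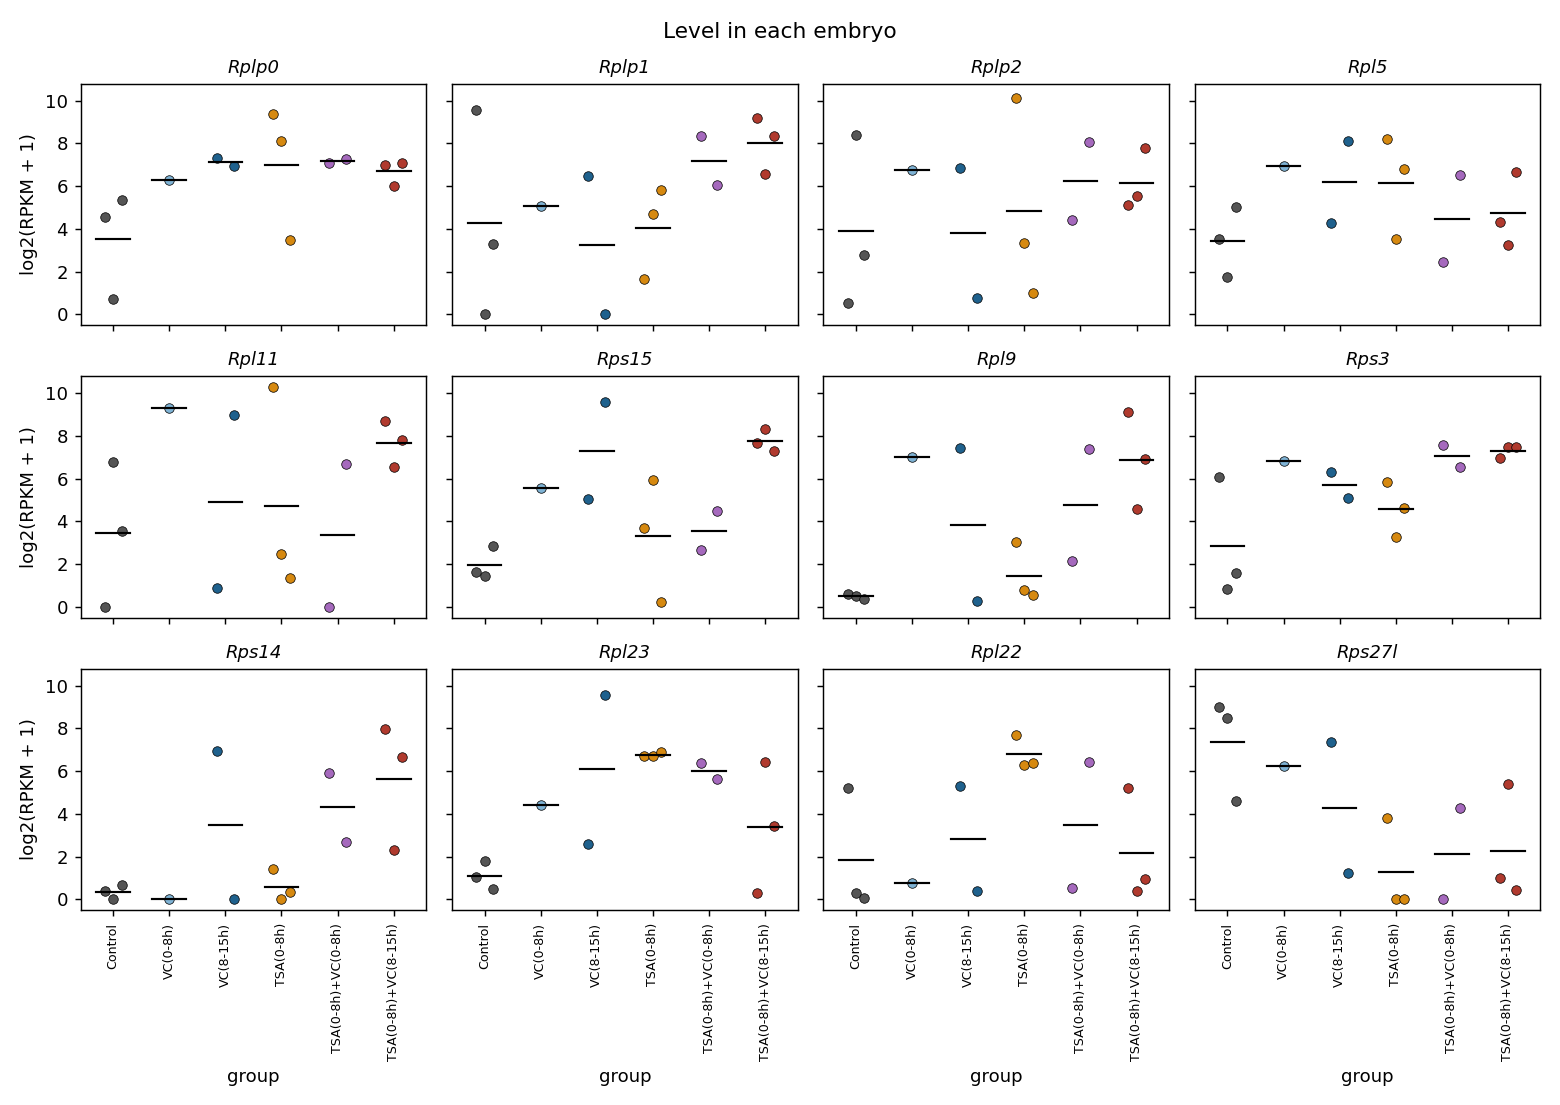
Level of 12 ribosomal protein genes as log2(RPKM + 1) (y axis) by group (x axis), each point 1 embryo and each line the group mean. In Rpl9, Rps15, Rps3 and Rps14 the 3 TSA(0-8h)+VC(8-15h) embryos lie above the control and TSA(0-8h) embryos, and in Rpl23 the 3 TSA(0-8h) embryos lie between 102 and 116 RPKM. In Rplp0, Rplp1, Rpl22 and Rps27l some pairs of the groups of 3 do not overlap. In Rplp2, Rpl5 and Rpl11 the groups of 3 all overlap.

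The smaller groups gave 2 further comparisons and an interaction. Between VC(8-15h) and control embryos, 10 of the 80 genes were higher at an unadjusted p under 0.05 (background 3.21%) and 0 were lower (background 1.97%), and no gene passed after adjustment in limma (0%). Limma-voom called 4 of all genes (0.0532%) and 0 ribosomal protein genes. The groups did not overlap for 13 that were higher (background 9.15%) and 1 that was lower (background 6.54%). The median was 1.09, against -0.02 for all genes, but 0 without replicate 1 of VC(8-15h) and 0.48 without control replicate 3. Without control replicate 3, 9 genes were higher and 1 was lower (background 2.76% and 2.11%). Rps13, of the small subunit, was at 152 and 692 RPKM in VC(8-15h) and at 1.27, 1.75 and 0.506 RPKM in control embryos, and Rpl6, of the large subunit, at 67.6 and 514 RPKM against 0.148, 2.80 and 0.177 RPKM. Both, chosen after their values were seen, had a limma adjusted p of 0.761.

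Between TSA(0-8h)+VC(0-8h) and TSA(0-8h) embryos, 4 genes were higher at an unadjusted p under 0.05 (background 5.01%) and 0 were lower (background 0.678%), again with no gene past the adjusted threshold in limma (0%). Limma-voom called 2 of all genes (0.0266%) and 0 ribosomal protein genes. The groups did not overlap for 13 that were higher (background 16.1%) and 3 that were lower (background 3.15%). The median was 0.41 against 0.66 for all genes, and its sign turned to -0.13 with median-ratio scaling and to -0.37 with quantile normalization, as it did without replicate 2 of the former group. It was 1.46 without its replicate 1, and between 0.66 and 1.01 without any 1 of the TSA(0-8h) embryos. The 4 genes became 9 without TSA(0-8h) replicate 1 (background 4.58%). The number that were lower, 0, became 3 without TSA(0-8h) replicate 3 (background 0.991%). It became 1 without TSA(0-8h) replicate 1 or 2 (background 0.976% and 0.997%). The same held without VC(0-8h) replicate 1 or VC(8-15h) replicate 1 (background 0.761% and 0.764%). With median-ratio scaling 3 were lower (background 1.88%) and 2 higher (background 2.78%). The interaction asks whether VC(8-15h) has a different effect after TSA than without it. No gene passed in limma (0%), and limma-voom called 3 of all genes (0.0399%) and 0 of the 80. In limma, 0 of the 80 were above 0 at an unadjusted p under 0.05 (background 3.22%) and 4 were below (background 1.41%), with Rpl23, Rps23 and Rpl15 among them. Below 0 there were 8 with median-ratio scaling (3.26% of all genes), and 2 without control replicate 2 (1.21%) or TSA(0-8h)+VC(8-15h) replicate 2 (1.23%). For Rpl23 the interaction was -8.35 ± 2.82 (SE; limma adjusted p = 0.905), with the VC(8-15h) embryos at 5.06 and 757 RPKM. The median interaction was -0.10 for the 80 genes and 0.75 for all genes, and -1.23 and 0.01 with median-ratio scaling. For the 80 genes it was above 0 without control replicate 3 (0.09), VC(8-15h) replicate 1 (0.21) or TSA(0-8h) replicate 1 (0.11).

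By role, the 4 proteins of the P stalk, which recruits elongation factors, were all above 0 in TSA(0-8h)+VC(8-15h) minus control, with a median of 2.96 against 0.38 for all genes, and 1 of the 4, Rplp0, had an unadjusted p under 0.05. Rplp0, the base of the stalk, was at 22.6, 0.643 and 39.9 RPKM in control, at 668, 279 and 10.2 RPKM in TSA(0-8h) and at 125, 63.9 and 136 RPKM in TSA(0-8h)+VC(8-15h) embryos. Of the latter groups, TSA(0-8h)+VC(8-15h) stood fully above control. The acidic proteins Rplp1 and Rplp2, which bind Rplp0 as dimers in equal numbers, did not go together. Rplp1 was at 761, 0 and 8.65 RPKM in control embryos, where Rplp2 was at 0.418, 331 and 5.84 RPKM. In TSA(0-8h) embryos Rplp1 was at 2.12, 24.9 and 55.8 and Rplp2 at 1122, 9.00 and 0.965 RPKM. In TSA(0-8h)+VC(8-15h) embryos all values were above 30 RPKM, with Rplp1 at 583, 92.6 and 322 and Rplp2 at 33.9, 45.2 and 219 RPKM. Rpl12, at the stalk base, was at 21.7, 7.31 and 61.6 RPKM in control, 1089, 836 and 6.93 in TSA(0-8h) and 76.9, 255 and 182 in TSA(0-8h)+VC(8-15h) embryos.

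Rpl5 and Rpl11 carry the 5S rRNA into the large subunit and, when free, bind Mdm2. Rpl5 was seen in every embryo, at 10.6, 2.31 and 31.1 RPKM in control, 291, 10.5 and 109 in TSA(0-8h) and 18.7, 8.60 and 101 RPKM in TSA(0-8h)+VC(8-15h). Rpl11 was at 0, 110 and 10.7 RPKM in control, at 1242, 4.52 and 1.58 RPKM in TSA(0-8h) and at 407, 91.4 and 220 RPKM in TSA(0-8h)+VC(8-15h). Neither had an unadjusted p under 0.05 in any of the 3 comparisons, and the groups overlapped.

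Proteins around the exit of the peptide tunnel (7 genes, Rpl17 to Rpl39) had 2 genes that were higher at an unadjusted p under 0.05 in TSA(0-8h)+VC(8-15h) minus control, Rpl26 and Rpl31, and a median of 2.15. Proteins near the peptidyl transferase centre and the subunit interface (7 genes) had 0 and a median of 1.68, and those of the mRNA path (6 of 7 tested) had 2, Rps3 and Rps14, and a median of 1.22. In none of these lists was a gene lower at that threshold. Over all genes, 5.09% were higher at it and the median was 0.38.

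Of the 5 other small subunit genes chosen for their known roles, Rps6 and Rps27a had an unadjusted p under 0.05 in that comparison, and these were the only 2 of the 5 above 0. The median of the list was -0.47, against 0.38 for all genes, of which 5.09% were higher at that threshold. Rps6, the target of the S6 kinases, was at 30.3, 0.523 and 0.106 RPKM in control and at 14.2, 148 and 155 RPKM in TSA(0-8h)+VC(8-15h) embryos. Rps27a, made as a fusion with ubiquitin, was at 0 in all 3 control embryos and at 8.24, 0.532 and 66.3 RPKM in the treated ones. Rps19, mutated in Diamond-Blackfan anaemia, was at 15.2, 953 and 0 RPKM in control and at 0.366, 604 and 0 RPKM with the treatment. Rpsa, which is also a laminin receptor, was at 1.98, 130 and 73.3 RPKM against 76.4, 25.8 and 4.29 RPKM, and Rps25 at 72.0, 10.4 and 0.108 RPKM in control against the values given above.

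Paralogues differed in level. Of 8 found in the files, 4 passed the filter and reached over 100 RPKM in some embryo (Rps27l, Rps27rt, Rpl10l and Rpl7l1), and Rpl3l (a muscle form), Rpl22l1, Rpl36al and Rpl39l (a testis form) reached at most 1.19 RPKM. The levels of their parents varied between embryos, and of these Rpl10, Rpl22 and Rps4x were above 0 in all 14. Rpl3 was at 1.35, 355 and 0.0541 RPKM in control embryos and under 11 RPKM in every embryo of the other groups of 3. Rpl36a was at 174 RPKM in replicate 1 of TSA(0-8h) and under 3 RPKM elsewhere. Rpl39 was at 288 RPKM in replicate 3 of TSA(0-8h) and at 0 in 6 of the other embryos. Rpl10l, an autosomal copy of the X-linked Rpl10 that is known from the testis, reached 155 RPKM in replicate 1 of TSA(0-8h)+VC(8-15h) and 108 RPKM in replicate 2 of VC(8-15h), and Rpl10 stood at 462 and 0.383 RPKM in the same embryos. Rpl7l1 was seen in all 14 embryos, at 0.0389 to 119 RPKM, whereas Rpl7 was at 0 in replicate 3 of the control. Rps4x, the X-linked form of Rps4, was at 0.421, 23.9 and 0.168 RPKM in control and at 98.5, 110 and 80.1 RPKM in TSA(0-8h)+VC(8-15h) embryos, with no overlap and a log2 difference of 4.80 ± 2.04 (SE; limma adjusted p = 0.706). Rps27rt was highest, at 364 RPKM, in replicate 2 of VC(8-15h), the embryo in which its identical parent Rps27 was at 4085 RPKM. The only entry of Rps27rt had a recovered length of 76 bases, which is uncertain because very short recovered lengths were multiplied. Its values of 3.83, 6.18 and 3.39 RPKM in control replicate 2, VC(0-8h) replicate 1 and TSA(0-8h)+VC(8-15h) replicate 2 rested on 2 recovered reads each. Without these values it would not have passed the filter.

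Ribosomal proteins under other symbols varied in the same manner. Fau, which is made as a fusion with a ubiquitin-like protein, was at 180, 4.83 and 0.129 RPKM in control and at 0, 0.451 and 78.0 RPKM in TSA(0-8h)+VC(8-15h) embryos, and Rack1, a scaffold on the small subunit, was at 90.7, 0.349 and 1.58 against 11.6, 2.77 and 87.4 RPKM. Neither had an unadjusted p under 0.05 in any comparison.

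The genes that build ribosomes were looked at beside the ribosomal proteins. Of 41 genes of ribosome biogenesis, 35 were above 0 in TSA(0-8h)+VC(8-15h) minus control (58.8% of all genes), with a median of 1.84 against 0.38 for all genes. Of these, 4 were higher and 0 lower at an unadjusted p under 0.05 (background 5.09% and 1.84%), and none passed after adjustment. Polr1c, a subunit of RNA polymerases I and III, was at 0.283, 3.35 and 0.169 RPKM in control and at 108, 26.5 and 163 RPKM in TSA(0-8h)+VC(8-15h) embryos (limma adjusted p = 0.697). Nhp2 and Nop56, of the particles that modify rRNA, had log2 differences of 3.72 ± 1.62 and 4.13 ± 1.84 (SE; limma adjusted p = 0.706 for both). In TSA(0-8h) minus control, 25 of the 41 were above 0 (42.7% of all genes) with a median of 0.34 (-0.24 for all genes), and 2 were higher and 1 lower at that threshold (background 2.34% and 3.42%). In TSA(0-8h)+VC(8-15h) minus TSA(0-8h), 32 were above 0 (66.0% of all genes) with a median of 1.66 (0.71 for all genes), and 6 were higher and 1 lower (background 4.97% and 1.02%).

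Other genes with a known 5′ pyrimidine tract (19 found in the files) had medians of 0.69, 0.16 and 0.29 in the same 3 comparisons. The medians over all genes were 0.38, -0.24 and 0.71, so the third of these lay below that of all genes. At an unadjusted p under 0.05, 2, 2 and 1 of the 19 were higher (background 5.09%, 2.34% and 4.97%). None was lower at that threshold (background 1.84%, 3.42% and 1.02%). Elongation and termination factors (10 genes, 9 tested) had medians of 0.02, 0.16 and 0.88, with 1 gene lower in the second comparison and 0 others at that threshold. Genes of the mTOR pathway and of the Larp proteins that control such mRNAs (14 genes, 11 tested) had medians of 0.52, -0.44 and 0.96 and 0 genes at that threshold.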

How the data were processed

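Total RNA of 14 single embryos was sequenced as single-end 50-base reads. The authors mapped trimmed reads to mm9 with TopHat2 (named in the submitters' processing notes), counted them on exons and deposited RPKM values per RefSeq transcript. Here 25250 of 25650 entries were given a symbol (GRCm38.p6 table) and summed per gene. Reads that lie on several entries of a gene may thus enter its sum more than once. Reads counted were recovered from the RPKM steps (99.77% to 99.99% of reads per embryo), and read recovery and the limma fit were tested on simulated data. Genes with at least 1 RPKM in at least 3 of 14 embryos, whatever their group, were fitted with limma 3.58.1 (R 4.3.3, trend) on log2(RPKM + 1), a scale that understates low genes, with 1 estimate of the spread for all 6 groups (8 residual degrees of freedom).

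The members and lists were chosen with earlier results of these data known. Named were genes of the role lists, the 5 highest and lowest means, the 5 largest and smallest SDs, the 3 smallest p per direction in the comparisons of 3 embryos with 3, and genes at 0 throughout; a few of these are not reported here. Alternatives were a pseudocount of 0.1, no filter, at least 5 RPKM, 1 RPKM in all embryos of either group compared (after the filter of the authors, who used CPM), median-ratio scaling, quantile normalization, a replicate block, no trend, the highest entry of a gene, a threshold of 0.1 and leaving out each embryo. Limma-voom on recovered reads, the genes with under 50% shared windows and the highest entry for sums were added after seeing the data. Other steps used Python 3.11.15 with scipy 1.17.1, pandas 2.3.3, numpy 2.4.6 and matplotlib 3.10.9.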

Additional observations from a re-analysis of the deposited data

Results flagged for a closer look

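The only VC(0-8h) embryo, which enters no comparison, had 69 of the 89 ribosomal protein genes at 1 RPKM or more, above the control embryos (34 to 46), and the median gene was at 25.2 RPKM, above the highest control value of 1.19 RPKM. The number of all genes at 1 RPKM was 5714 in this embryo and 3576 to 4979 in control embryos. With 1 embryo the difference was not tested. No group held 4 or more embryos, so no embryo was tested as an outlier of its group.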

How the results depend on the processing

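No ribosomal protein gene passed the threshold in any of the 6 comparisons under any of the 150 alternative results, limma-voom on recovered reads and an adjusted p of 0.1 included. The smallest adjusted p of a member in any alternative was 0.0691, in TSA(0-8h)+VC(0-8h) minus TSA(0-8h). Of all genes, at most 20 passed in one direction, in the same comparison. Of 150 alternative medians, 1 moved by more than the spread between embryos (SD of the embryos' medians within groups): TSA(0-8h)+VC(8-15h) minus control was 2.81 with a filter that by construction keeps genes at 1 RPKM in all embryos of either group compared. That SD was 1.40, no smaller than any of the 6 medians. A median could therefore fall to 0, and most could change sign, without counting as moved, so this count does not show that the medians are stable. Without each embryo in turn, the medians ranged from 1.37 to 1.76 in that comparison, 0.16 to 1.04 in TSA(0-8h) minus control, 0.64 to 1.43 in TSA(0-8h)+VC(8-15h) minus TSA(0-8h), 0 to 1.44 in VC(8-15h) minus control, -0.37 to 1.46 in TSA(0-8h)+VC(0-8h) minus TSA(0-8h) and -0.58 to 0.21 for the interaction. The directions of the 18 named differences held in all 448 alternatives. These differences were picked by their small p in the same embryos that the alternatives reuse, so a kept direction is no support for them. With median-ratio scaling the mean sums moved to 28560 RPKM in VC(8-15h), 3301 in TSA(0-8h)+VC(0-8h) and 3255 in TSA(0-8h)+VC(8-15h), the last now below control (5562), and the cause was not tested.

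Same-numbered embryos of the groups of 3 did not deviate together (correlations of 0.0125 to 0.0580 over all genes and of -0.168 to 0.168 over the ribosomal protein genes), so the numbers were not taken as pairs. The fit with the replicate block gave 0 calls in each comparison and medians of 1.40, 0.79 and 1.02 in the comparisons of 3 embryos with 3, 0.79 in VC(8-15h) minus control, 0.17 in TSA(0-8h)+VC(0-8h) minus TSA(0-8h) and 0.06 for the interaction. Depth limits values under 0.221 to 0.993 RPKM.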
